A study of Mus musculus with 40 samples.

Results

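The comparison of 7aaRGD with vehicle in mice bearing human U87-MG gliomas was made on 6 of the 40 samples of the series, chosen by their labelled tumor line and treatment: 3 vehicle samples and 3 7aaRGD samples. The question was which transcripts of the CD11b+ myeloid cells of the tumor-bearing hemisphere differed after the RGD peptide. U87-MG is an established human glioblastoma line, here a red fluorescent derivative implanted into the striatum of athymic nude-Foxn1nu mice 10 to 12 weeks old, a host without a functional thymus that keeps NK and myeloid cells. Osmotic pumps delivered water (vehicle), 7aaRGD or the control peptide 7aaRAE, both at 2 mg/ml, into the tumor until day 21. Each sample pooled cells sorted for CD11b from 2 animals, so the spread between samples is a spread between pools, and all groups shared the tumor, the host and the pump. The 3 samples given 7aaRAE belong to the same table and stand beside the comparison as the control for the peptide itself. One tumor line and 1 host strain were used.

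The arginine-glycine-aspartate (RGD) motif is the short stretch by which osteopontin, fibronectin, vitronectin, thrombospondin and other matrix proteins are held by a subset of integrins, among them αvβ3, αvβ5 and α5β1. A peptide that carries the motif competes for that pocket. The control peptide has alanine and glutamate in place of the glycine and aspartate. In glioma the CD11b+ cells are mostly microglia and macrophages that entered from blood, and both carry such integrins.

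The values were RPKM, read counts scaled to the length of the gene and the depth of the library, and about 14430000 to 20470000 reads per sample could be recovered from the steps between low values. The sort held in all 9 tumor-bearing samples. Itgam, which encodes CD11b, lay between 126.2 and 195.0 RPKM and the macrophage genes Cd68 and Aif1 reached at least 420.7 and 78.1 RPKM, while 7 of 10 T-cell markers, Cd3e among them, stayed under 0.3 RPKM in every sample. The samples of 1 group were not equally close. The standard deviation of the log2 differences between 2 vehicle samples was 0.213 to 0.235 over the genes tested, but it was 0.425 between 7aaRGD samples 1 and 2, with 370 genes more than 1 log2 unit apart. On the first principal component, which held 49.7% of the variance, 7aaRGD sample 2 (22.8) and 7aaRAE sample 2 (27.5) stood apart from the other 7 samples (−15.5 to 1.8). Sample 3 of each group also came from a second set of columns with its own added constant, which was common to the 3 groups. Sample numbers were given in column order and pair nothing.

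No gene passed the threshold in 7aaRGD against vehicle. Of 9673 genes whose mean reached 1 RPKM, 9665 protein-coding and 8 annotated as polymorphic pseudogenes, 0 (0%) had an adjusted p under 0.05 (limma on log2(RPKM + 1), Benjamini-Hochberg), and the smallest adjusted p was 0.113. At an unadjusted p under 0.05 there were 364 genes (3.76%), 138 higher (1.43%) and 226 lower (2.34%) with 7aaRGD. In a comparison built on the noise between samples, the principle of the study's own method, 115 genes were called higher (1.19%) and 91 lower (0.941%). The values of the 2 groups did not overlap for 428 genes in the higher direction (4.42%) and 619 in the lower (6.4%). The median difference over all genes was −0.003 log2 units and the median standard error 0.116, and 24 genes (0.248%) differed by more than 1 log2 unit, 12 in each direction. Every difference of 7aaRGD from vehicle given below is therefore a description with its error, and none passed the correction with all samples in the fit. In bulk samples, fewer cells of a type and less RNA per cell cannot be told apart.

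Among the genes furthest down were H2-Ob and H2-DMb1, which take part in editing the peptide cargo of MHC class II, with Ly6e (−1.44 log2 units) between them. Class II molecules show CD4 T cells peptides from engulfed protein. H2-DM, built from the H2-DMa chain and an H2-DMb chain, takes the invariant chain fragment out of the groove, and H2-O, built from H2-Oa and H2-Ob, holds H2-DM back. H2-DMb1 (chr17:34153072-34160230, + strand, GRCm38) was at 34.5, 40.4 and 32.4 RPKM in the vehicle samples, at 11.5, 16.5 and 11.5 RPKM with 7aaRGD and at 22.6, 23.7 and 30.4 RPKM with 7aaRAE. All 3 samples with 7aaRGD lay under every vehicle sample and under every sample with 7aaRAE. The mean went from 35.8 ± 4.14 (SD, n = 3) to 13.1 ± 2.9 RPKM (SD, n = 3). The difference was −1.39 ± 0.162 log2 units (SE; 95% interval −1.76 to −1.02), or 2.62-fold lower, with a limma p of 1.17e-05 before and 0.113 after adjustment, the smallest of all genes. H2-Ob (chr17:34238903-34254414, + strand) was at 21.0, 19.4 and 16.9 RPKM in the vehicle samples, at 2.65, 10.4 and 2.61 RPKM with 7aaRGD and at 15.7, 15.3 and 15.4 RPKM with 7aaRAE. Samples 1 and 3 with 7aaRGD were close to each other and sample 2 lay between them and the other groups, again with no overlap. The difference was −1.91 ± 0.376 log2 units (SE), the furthest below vehicle of any gene tested, with a limma p of 0.000639 and an adjusted p of 0.772. Without 7aaRGD sample 2, both genes passed the threshold, H2-Ob at −2.46 (adjusted p = 3.02e-05) and H2-DMb1 at −1.55 (adjusted p = 0.012), and they were the 2 genes that did.

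The remaining class II genes were less uniform. H2-DMb2, the neighbouring copy of H2-DMb1, was at 20.7, 21.7 and 20.7 RPKM with vehicle and at 15.1, 14.0 and 14.1 RPKM with 7aaRGD (−0.52 ± 0.164 log2 units, SE; adjusted p = 0.941 by limma). Its 7aaRGD samples were all lower, though by less than those of H2-DMb1. The copies are similar in sequence, and reads below a mapping quality limit, as those that match several places equally are, were left out by the authors, so the level of each copy is uncertain. H2-Oa, the partner of H2-Ob, differed by −0.32 log2 units without overlap. H2-DMa, the partner chain of both H2-DMb copies, was at 44.3, 44.6 and 37.4 RPKM with vehicle and at 61.8, 31.5 and 66.4 RPKM with 7aaRGD, so that samples 1 and 3 were above and sample 2 below every vehicle sample. The peptide-presenting chain H2-Ab1 was at 70.1, 89.0 and 72.1 RPKM with vehicle and at 69.4, 59.7 and 170.9 RPKM with 7aaRGD. Only sample 3 was high, and the same held for H2-Aa, H2-Eb1 and the invariant chain gene Cd74 (292.9, 297.7 and 615.5 RPKM with 7aaRGD against 393.7 to 432.5 with vehicle). Over the 11 class II genes tested, 8 were lower and 3 higher in the mean, against 50.8% and 49.2% of all genes, 4 did not overlap, each in the lower direction (all genes lower, 6.4%), and the median difference was −0.125 log2 units. Leaving out 1 sample at a time moved that median between −0.423 (without 7aaRGD sample 3) and 0.003 (without 7aaRGD sample 1). In the samples with 7aaRAE it was −0.558, with 10 of 11 lower (all genes, 50.9%). Both comparisons share the vehicle samples.

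**Figure D1:**
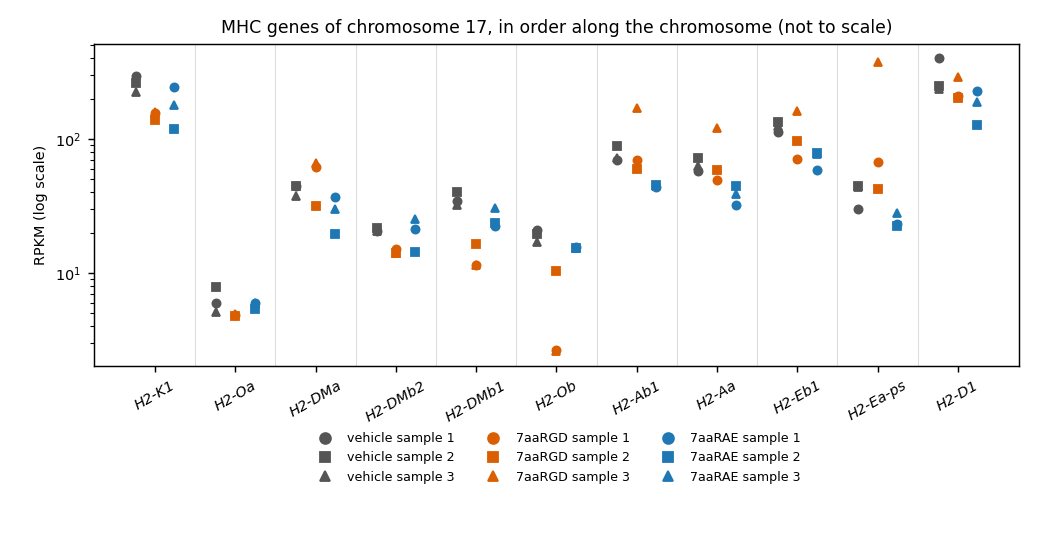
RPKM on a log scale (y axis) for 11 MHC genes of chromosome 17, ordered along the chromosome but not to scale (x axis); each point is 1 sample, with color for the group and shape for the sample number. H2-DMb1 and H2-Ob with 7aaRGD lie under all other samples, while 7aaRGD sample 3 is the highest at H2-Ab1, H2-Aa, H2-Eb1 and H2-Ea-ps.

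A further class II gene set sample 3 apart. H2-Ea-ps (chr17:34341959-34344645, − strand) is the alpha chain of H2-E, which mice of the C57BL/6 haplotype cannot express because its promoter is deleted. It was at 30.3, 44.6 and 43.6 RPKM with vehicle, at 67.3, 42.1 and 374.5 RPKM with 7aaRGD and at 23.1, 22.5 and 28.0 RPKM with 7aaRAE. The vehicle samples and 7aaRGD samples 1 and 2 were of 1 order, and sample 3 was far above them (1.37 ± 0.647 log2 units, SE; adjusted p = 0.941 by limma, unadjusted 0.0624). In the GL261 table, from C57BL/6 hosts, it was at or under 0.0554 RPKM in all 6 vehicle and 7aaRGD samples. Reads were aligned to mm10, and the H2 haplotypes of the pooled nude mice were not given. Whether haplotypes differed between the samples, and their part in the levels of the H2 genes above and below, was not tested.

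The windows upstream of H2-DMb1 and H2-Ob are shown because these neighbours on chromosome 17 were the furthest down of the class II genes. Class II promoters are read by an enhanceosome that includes NF-Y, whose box is CCAAT. In the 250 bases before the RefSeq start (GRCm38.p6), CCAAT on either strand was found in 7 of the 8 class II genes with a window (87.5%), against 33.8% of all 32851 windows. The capitals mark it, here as ATTGG, at −61 in H2-DMb1 (chr17:34152941-34153190, + strand, which reaches past the GENCODE start of the gene) and at −57 in H2-Ob (chr17:34238655-34238904, + strand). The match is a description of the letters and was not tied to the levels.
H2-DMb1: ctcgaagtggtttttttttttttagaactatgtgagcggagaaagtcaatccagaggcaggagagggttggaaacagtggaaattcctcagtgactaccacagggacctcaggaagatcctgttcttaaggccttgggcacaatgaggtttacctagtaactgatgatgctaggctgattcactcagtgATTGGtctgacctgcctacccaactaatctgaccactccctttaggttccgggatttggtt
H2-Ob: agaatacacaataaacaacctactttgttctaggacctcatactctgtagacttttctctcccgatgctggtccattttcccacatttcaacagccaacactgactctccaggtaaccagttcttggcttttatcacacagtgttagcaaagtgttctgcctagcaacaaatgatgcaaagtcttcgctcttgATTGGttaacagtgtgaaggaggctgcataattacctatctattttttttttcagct

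MHC class I presentation was lower in the mean at each of 19 listed genes, and H2-Q2, a further heavy chain gene outside the list, differed by 0.04 log2 units. Class I molecules, a heavy chain with β2-microglobulin, show peptides from the cell's own proteins to CD8 T cells and to NK receptors, after cutting by the immunoproteasome and transport by TAP. Against 50.8% of all genes lower in the mean, the list had 19 of 19, 5 at an unadjusted p under 0.05 (all genes lower, 2.34%), and 14 did not overlap (all genes lower, 6.4%). The median was −0.346 log2 units. H2-K1, a classical heavy chain, was at 293.3, 264.2 and 222.9 RPKM with vehicle, at 156.0, 138.9 and 158.1 RPKM with 7aaRGD and at 245.0, 119.1 and 178.2 RPKM with 7aaRAE. The 7aaRGD samples were close together and under every vehicle sample, and the 7aaRAE samples spanned both ranges (7aaRGD minus vehicle −0.77 ± 0.226 log2 units, SE; adjusted p = 0.941 by limma). B2m was at 1626.0, 1746.6 and 1637.4 RPKM with vehicle and at 1454.3, 1248.8 and 1246.0 RPKM with 7aaRGD, a difference of −0.35 ± 0.163 (SE). The transporter genes Tap1 (−0.37) and Tap2 (−0.30) and the immunoproteasome genes Psmb8 (−0.39) and Psmb9 (−0.35) did not overlap either. H2-D1, the other classical heavy chain, did overlap: it was at 236.0 to 400.3 RPKM with vehicle and at 201.0 to 288.1 RPKM with 7aaRGD. With 7aaRAE 18 of the 19 genes were lower in the mean and the median was −0.323. Reads that match several of the closely similar heavy chain genes equally were left out in the same way, and their single levels are uncertain.

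The study names 5 of these genes as its antigen presentation group, B2m, H2-K1, H2-Ob, H2-DMb1 and H2-DMb2. All 5 were lower in the mean without overlap, with a median of −0.774 log2 units, and 4 were called lower in the noise comparison (all genes, 6.4% and 0.941%). That group was chosen by the study on these samples and is not independent evidence of its direction, which applies equally to its other groups. Its cell killing group, Ccr6, Lgals3bp and Lgals9, was lower in the mean at 3 of 3 genes, and the groups overlapped at each. Ccr6, a chemokine receptor, ran from 59.1 to 140.5 RPKM with vehicle, from 46.3 to 82.7 RPKM with 7aaRGD and from 14.7 to 132.3 RPKM with 7aaRAE.

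**Figure D2:**
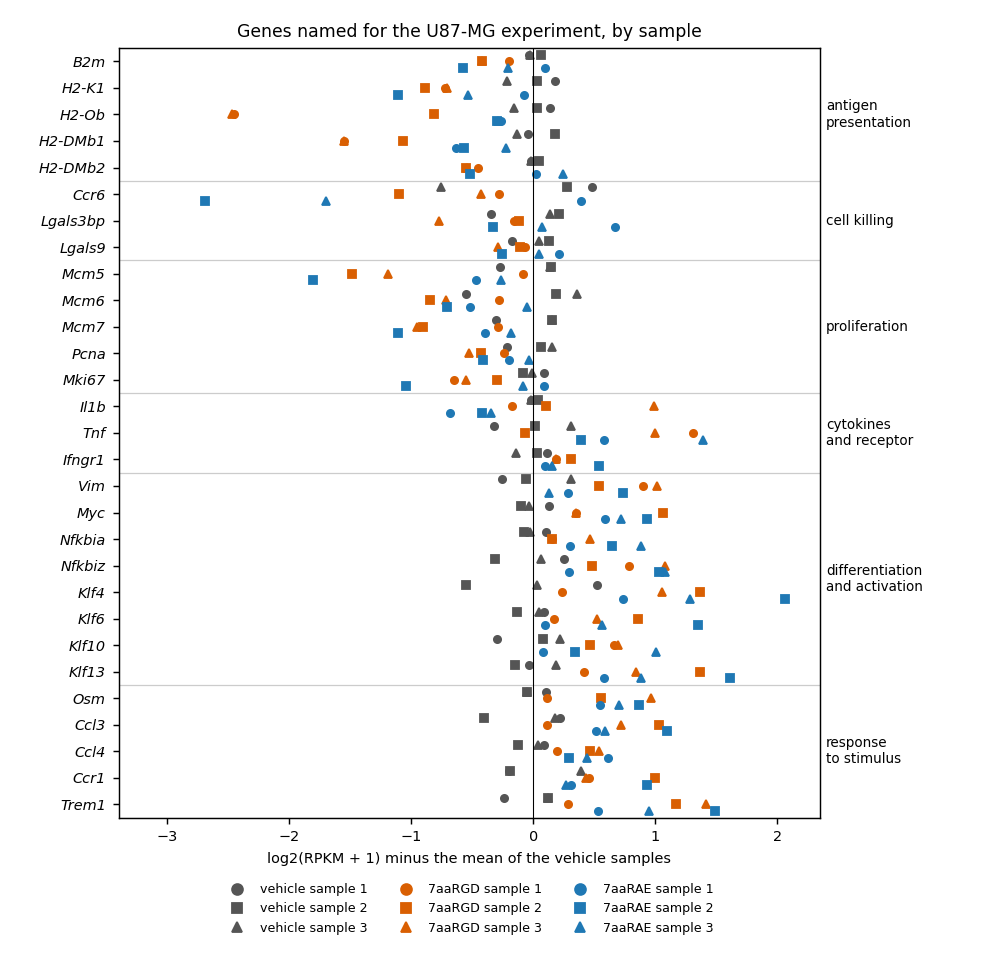
Log2(RPKM + 1) minus the mean of the vehicle samples (x axis) for 29 genes the study names in the U87-MG experiment (y axis, by its groups); each point is 1 sample, color marks the group and shape the sample number. Antigen presentation genes with 7aaRGD lie to the left of all vehicle samples, while most genes of the last groups lie to the right together with 7aaRAE.

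Interferon-induced genes were also lower in the mean, but the median of the type I list in 7aaRGD sample 1 stayed within the vehicle range. Interferons switch on antiviral genes and much of class I presentation. All 20 type I interferon response genes were lower in the mean (all genes, 50.8%), 0 of 20 at an unadjusted p under 0.05, with a median of −0.574 log2 units. By sample, the list median relative to the vehicle mean was −0.33, 0.19 and 0.12 with vehicle, −0.09, −0.85 and −0.63 with 7aaRGD and 0.64, −1.06 and −0.34 with 7aaRAE. 7aaRGD sample 1 lay inside the vehicle range and samples 2 and 3 below it, while 7aaRAE sample 1 was the highest of all and the other 7aaRAE samples were below vehicle. Cxcl10, an interferon-induced chemokine that draws T cells, was at 9.73, 22.4 and 17 RPKM with vehicle, at 10.9, 4.11 and 6.32 RPKM with 7aaRGD and at 45.6, 2.19 and 9.39 RPKM with 7aaRAE (−1.11 ± 0.811 log2 units for 7aaRGD, SE). Oasl2 (−0.85) and Bst2 (−0.53), the membrane tether that holds budding virions, did not overlap. Among 10 interferon-gamma-induced genes all were lower in the mean (all genes, 50.8%), with a median of −0.382. Both the count and the median include Cxcl9, whose direction is tied to the filter. The guanylate-binding protein gene Gbp2 (−0.80) did not overlap. Cxcl9 was at 4.26, 1.43 and 0.937 RPKM with vehicle, at 0.26, 0.204 and 0.838 RPKM with 7aaRGD and at 0.47, 0.0821 and 0.981 RPKM with 7aaRAE. It reached a mean of 1 RPKM through the vehicle group alone, so its lower level with 7aaRGD is tied to the filter and is given with no test.

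Genes of DNA replication and mitosis were lower in the mean throughout. Replication opens at origins loaded with the MCM2-7 helicase, and the sliding clamp PCNA is loaded by the RFC complex and holds the polymerase on its template. Of 24 DNA replication genes tested 24 were lower in the mean, 11 at an unadjusted p under 0.05 (all genes lower, 2.34%) and 9 without overlap (all genes, 6.4%), with a median of −0.469 log2 units. By sample, the list median of 7aaRGD sample 1 (−0.13) lay within the vehicle range (−0.21 to 0.16), and samples 2 and 3 (−0.51 and −0.59) lay below it. With 7aaRAE 23 of the 24 genes were lower in the mean (all genes, 50.9%), at a median of −0.326. Rfc3, a subunit of the clamp loader, was at 2.99, 3.26 and 3.53 RPKM with vehicle, at 2.19, 1.99 and 2.05 RPKM with 7aaRGD and at 2.61, 2.46 and 2.89 RPKM with 7aaRAE. The 7aaRGD samples were the lowest 3 of the 9 (−0.47 ± 0.0855 log2 units, SE; adjusted p = 0.731 by limma, unadjusted 0.000378). The helicase subunit genes were less regular. Mcm5 was at 13.1, 17.8 and 17.7 RPKM with vehicle and at 15.1, 5.09 and 6.48 RPKM with 7aaRGD, and Mcm6 was at 8.48, 14.8 and 16.8 RPKM with vehicle and at 10.4, 6.7 and 7.45 RPKM with 7aaRGD. In both, sample 1 with 7aaRGD lay between vehicle sample 1 and the others, so the groups overlapped. Pcna (−0.40 ± 0.133, SE) and the proliferation marker Mki67 (−0.50 ± 0.255, SE) did not overlap, whereas Mcm7 (−0.72) did. The study's proliferation group, which these 5 genes make up, was lower in the mean at 5 of 5 genes with a median of −0.613, and 4 were called lower in the noise comparison (all genes, 0.941%).

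The 20 mitosis genes tested were all lower in the mean too, with a median of −0.485 log2 units, 0 at an unadjusted p under 0.05 and 9 without overlap (all genes lower, 6.4%). Stmn1 (−0.80), a microtubule regulator, Top2a (−0.79), which untangles replicated DNA, and the spindle factor Tpx2 (−0.64) had the largest differences. By sample, the mitosis median was −0.24, 0.27 and −0.03 with vehicle, −0.25, −0.48 and −0.78 with 7aaRGD and 0.05, −1.02 and 0.01 with 7aaRAE. The first 7aaRGD sample was level with the lowest vehicle sample, and a single 7aaRAE sample was the lowest of all. With 7aaRAE 19 of the 20 mitosis genes were lower in the mean (all genes, 50.9%), at a median of −0.334.

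The upstream windows of 3 replication genes are shown because E2F, the factor family that times replication genes to S phase, reads a known box. The 4 forms searched on both strands, TTTCCCGC, TTTCGCGC, TTTGCCGC and TTTGGCGC, were found in the 250 bases before the RefSeq start in 5 of the 20 DNA replication genes with a window (25%), against 1.86% of all windows. They were Mcm5, Mcm6, Mcm7, Rfc3 and Pola1, and Cdk1 was the 1 of 15 mitosis genes (6.67%). Here too the gene shares count a match in any window of a gene, and the share of all is per window. Capitals mark the matches: a pair that overlap at −153 and −149 in Mcm5 (chr8:75109259-75109508, + strand), an overlapping pair at −110 and −106 and a single match at −47 in Mcm6 (chr1:128359706-128359955, − strand), and 1 match at −10 in Rfc3 (chr5:151651209-151651458, − strand). No binding was measured.
Mcm5: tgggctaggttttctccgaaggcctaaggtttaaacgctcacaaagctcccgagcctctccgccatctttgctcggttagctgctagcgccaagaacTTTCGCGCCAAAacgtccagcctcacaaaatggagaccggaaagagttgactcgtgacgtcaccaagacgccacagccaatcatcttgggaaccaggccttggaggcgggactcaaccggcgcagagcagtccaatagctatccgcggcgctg
Mcm6: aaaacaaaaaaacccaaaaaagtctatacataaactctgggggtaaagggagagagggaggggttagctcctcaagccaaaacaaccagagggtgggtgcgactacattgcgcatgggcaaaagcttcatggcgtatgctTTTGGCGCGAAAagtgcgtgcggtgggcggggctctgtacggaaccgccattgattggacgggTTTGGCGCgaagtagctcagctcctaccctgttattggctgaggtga
Rfc3: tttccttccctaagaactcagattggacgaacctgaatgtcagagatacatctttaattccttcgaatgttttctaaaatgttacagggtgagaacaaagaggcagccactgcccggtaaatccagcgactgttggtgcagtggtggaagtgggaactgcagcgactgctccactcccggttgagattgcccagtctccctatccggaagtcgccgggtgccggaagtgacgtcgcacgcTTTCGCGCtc

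Among genes higher in the mean with 7aaRGD, transcription factors of the immediate early and Krüppel-like families stood out by direction. Immediate early genes are switched on within minutes of a stimulus without new protein. All 20 tested were higher in the mean (all genes, 49.2%), 8 at an unadjusted p under 0.05 (all genes higher, 1.43%) and 6 without overlap (all genes higher, 4.42%), with a median of 0.376 log2 units for 7aaRGD and 0.346 for 7aaRAE. Egr2, a zinc finger factor of activated macrophages, was at 1.92, 2.06 and 2.21 RPKM with vehicle, at 4.88, 3.46 and 6.19 RPKM with 7aaRGD and at 1.94, 3.8 and 3.58 RPKM with 7aaRAE. The 7aaRGD samples were above all vehicle samples and overlapped those with 7aaRAE (0.91 ± 0.212 log2 units over vehicle, SE; adjusted p = 0.941 by limma, unadjusted 0.002). Egr1 went from 111.7 ± 20.8 to 199.2 ± 72.2 RPKM (SD, n = 3 each), and Fosl2 differed by 0.63 ± 0.233 (SE). The abundant Fos and Jun overlapped, with differences of 0.36 and 0.54.

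Of the study's differentiation and activation group, Vim, Myc, Nfkbia, Nfkbiz, Klf4, Klf6, Klf10 and Klf13 are described here. All 8 were higher in the mean with 7aaRGD, 7 without overlap (all genes higher, 4.42%), with a median of 0.696 log2 units, and 7 were called higher in the noise comparison (all genes, 1.19%). Vim, the intermediate filament gene of activated and motile cells, was at 61.5, 70.8 and 91.7 RPKM with vehicle, at 138.5, 107.7 and 149.5 RPKM with 7aaRGD and at 90.0, 123.0 and 80.4 RPKM with 7aaRAE. Every 7aaRGD sample was above every vehicle sample, and 7aaRAE sample 2 lay among them (0.82 ± 0.199 log2 units over vehicle, SE; adjusted p = 0.941 by limma, unadjusted 0.00257). Klf13 was at 18.3, 16.8 and 21.5 RPKM with vehicle, at 25.3, 50.0 and 34.5 RPKM with 7aaRGD and at 28.5, 59.5 and 35.5 RPKM with 7aaRAE. Nfkbiz, an inducible IκB protein that steers NF-κB to secondary response genes, went from 23.3 ± 4.66 to 40.9 ± 8.61 RPKM (SD, n = 3 each). Klf4 overlapped, since vehicle sample 1 was at 21.1 RPKM and 7aaRGD sample 1 at 17.2 RPKM. With 7aaRAE all 8 were higher in the mean as well (all genes, 49.1%), with a median of 0.707. Of all 11 Krüppel-like factor genes tested, 10 were higher in the mean with 7aaRGD, while Klf3, Klf12 and Klf7 were within 0.07 log2 units of vehicle.

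Cytokine and chemokine genes varied between the 7aaRGD samples. Of the study's cytokines and receptor group, Il1b was at 139.7, 145.7 and 140.4 RPKM with vehicle and at 125.3, 152.4 and 282.3 RPKM with 7aaRGD, so that its difference of 0.30 ± 0.252 log2 units (SE) rested on sample 3 and was −0.04 without it. Tnf was at 24.7, 31.4 and 38.9 RPKM with vehicle and at 78.6, 29.6 and 63.1 RPKM with 7aaRGD, where sample 2 stayed within the vehicle range. Ifngr1, a chain of the interferon-gamma receptor, was at 231.8 to 277.6 RPKM with vehicle and 291.3 to 317.4 RPKM with 7aaRGD, without overlap. In the response to stimulus group, Osm, Ccl3, Ccl4, Ccr1 and Trem1 were 5 of 5 higher in the mean, each at an unadjusted p under 0.05 (all genes higher, 1.43%), 4 without overlap (all genes higher, 4.42%), with a median of 0.621 log2 units. Trem1, a receptor that amplifies inflammatory signals, was at 2.42, 3.41 and 3.41 RPKM with vehicle, at 3.94, 8.11 and 9.81 RPKM with 7aaRGD and at 4.84, 10.4 and 6.82 RPKM with 7aaRAE. Ccl4, a chemokine that draws monocytes and T cells, went from 153.2 ± 11.7 to 203.0 ± 25.1 RPKM (SD, n = 3 each). The same 5 genes had a median of 0.703 with 7aaRAE.

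Glucocorticoid-responsive genes held one of the clearest single differences. Fkbp5, a co-chaperone of the glucocorticoid receptor and a standard readout of its activity, was at 10.4, 8.8 and 10.3 RPKM with vehicle, at 26.0, 42.4 and 22.8 RPKM with 7aaRGD and at 35.2, 61.8 and 35.4 RPKM with 7aaRAE. All 6 peptide-treated samples were above all vehicle samples. The difference for 7aaRGD was 1.49 ± 0.259 log2 units (SE; adjusted p = 0.731 by limma, unadjusted 0.000267), or 2.8-fold, and for 7aaRAE 2.01 (adjusted p = 0.0629). Per1, a clock gene with a glucocorticoid response, went from 11.1 ± 1.1 to 20.8 ± 6.51 RPKM with 7aaRGD (SD, n = 3 each) without overlap. Ddit4, an inhibitor of mTORC1, was at 14.6, 101.2 and 24.3 RPKM with 7aaRGD against 8.89 to 16.6 RPKM with vehicle, and Tsc22d3, which encodes GILZ, at 25.5, 62.0 and 46.7 RPKM against 21.4 to 30.5 RPKM. In both, sample 1 lay within the vehicle range and sample 2 was the highest of its group. Of 14 genes, 13 were higher in the mean with 7aaRGD, Sgk1 (−0.48) being the exception, 4 did not overlap (all genes higher, 4.42%), and the median was 0.402 log2 units. For 7aaRAE the median was 1.209, and 13 of 14 genes were lower in the mean with 7aaRGD than with 7aaRAE (all genes, 51.6%). Zbtb16, 1 of the 14, reached a mean of 1 RPKM through the 7aaRAE group alone, so its level with 7aaRAE is tied to the filter. The gap was wide at the metallothionein gene Mt2, at 3.48, 17.4 and 6.1 RPKM with 7aaRGD and 17.9 to 23.1 RPKM with 7aaRAE, against 6.44 to 8.01 RPKM with vehicle.

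**Figure D3:**
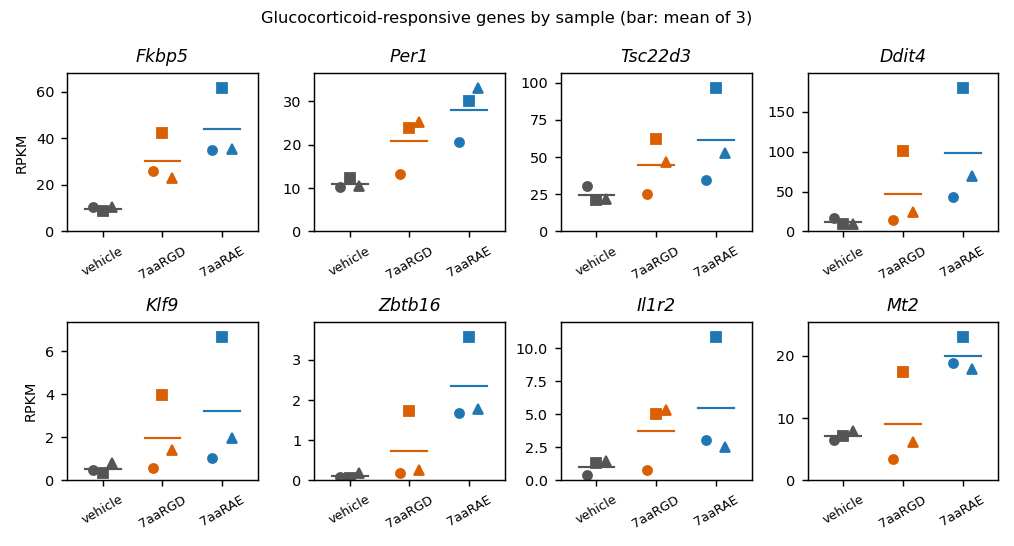
RPKM by sample (y axis, from 0) in the vehicle, 7aaRGD and 7aaRAE groups (x axis) for 8 glucocorticoid-responsive genes; points are samples, shape marks the sample number and the bar is the mean of 3. For Fkbp5 all peptide samples lie above vehicle, and sample 2 of the 7aaRGD group is the highest of its group in 6 of the 8 panels. Zbtb16 passed the filter through the 7aaRAE group alone.

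Among genes for integrins and their ligands, the direct setting of the peptide, Itga5 and Thbs1 were higher in the mean with 7aaRGD without overlap and Itgb3 was lower in the mean. Of 9 genes for RGD-binding integrin chains 5 passed the filter, and Itga8, Itga2b, Itgb6 and Itgb8 did not. Itga5 and Itgb3 were at an unadjusted p under 0.05 (all genes, 3.76%). Itgb5, whose product pairs with αv, was the most abundant at 781.9, 789.3 and 688.1 RPKM with vehicle and 818.6, 522.9 and 740.3 RPKM with 7aaRGD (−0.14 ± 0.187 log2 units, SE). Itgav differed by −0.07 ± 0.0809 and Itgb1 by −0.01 ± 0.0842 (SE), with 95% intervals of −0.25 to 0.11 and −0.20 to 0.18. Itga5, the α chain of the main fibronectin receptor, was at 15.2, 16.1 and 16.9 RPKM with vehicle and 18, 23.6 and 24.3 RPKM with 7aaRGD, without overlap (0.42 ± 0.124, SE; adjusted p = 0.941 by limma, unadjusted 0.0084). With 7aaRAE it was at 19.4, 22.8 and 18.5 RPKM, also above every vehicle sample (0.31). Itgb3, the partner of αv in the vitronectin receptor, was at 17.4, 24.9 and 18.6 RPKM with vehicle and 18, 10.5 and 13.5 RPKM with 7aaRGD, where sample 1 overlapped (−0.52 ± 0.19, SE; adjusted p = 0.941 by limma, unadjusted 0.0227). It was at 17.4, 14.5 and 17.7 RPKM with 7aaRAE (−0.27 from vehicle). Among 7 ligand genes tested, Thbs1, for thrombospondin-1, had the largest difference (0.69 ± 0.309, SE, without overlap). With 7aaRAE Thbs1 was at 19.8, 11.0 and 7.86 RPKM (0.18 from vehicle). Spp1, for osteopontin, differed by 0.08 ± 0.204 (SE) at 1242.2 to 2124.3 RPKM with 7aaRGD, Fn1, for fibronectin, by 0.46, Cyr61 by 0.19, Postn, for periostin, by 0.05, Tgfb1 by 0.02 and the phagocytic bridge Mfge8 by −0.01. Of 13 genes of integrin signalling, Vcl, which links integrins to actin, was the 1 at an unadjusted p under 0.05 (0.43).

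Marker genes of other cells shifted between samples beside these results, and their part in them was not tested. The summed level of 12 neutrophil markers was 276.4 to 287.6 RPKM with vehicle and 188.5 to 549.2 RPKM with 7aaRGD, the highest in sample 3. Csf3r made up most of the vehicle sum, at 200.4 to 226.9 RPKM, and was at 245.8, 114.6 and 194.6 RPKM with 7aaRGD. Of 11 markers tested, 10 were higher in the mean with 7aaRGD (all genes, 49.2%) and 1 did not overlap (all genes higher, 4.42%). The median was 0.828 log2 units, and 0.184 with 7aaRAE. S100a9, an abundant neutrophil calcium-binding protein, was at 48.1, 45.9 and 239.3 RPKM with 7aaRGD and 35.0 to 62.6 RPKM with vehicle. The neutrophil list median was 0.18, 0.26 and 1.82 log2 units above the vehicle mean in the 3 samples with 7aaRGD. It ran from −0.29 to 0.11 in the vehicle samples. Sample 3 was also the sample with the high Il1b, H2-Ab1 and H2-Ea-ps. The 12 NK-cell markers summed to 10.4 to 29.6 RPKM with vehicle, 2.06 to 11.1 RPKM with 7aaRGD and 0.62 to 3.22 RPKM with 7aaRAE, with Klrb1c, Eomes and Klre1 under 0.3 RPKM in every sample. Gzma, a granzyme, was at 5.5, 4.07 and 11.6 RPKM with vehicle, at 3.68, 0.724 and 3.24 RPKM with 7aaRGD and at 1.13, 0.24 and 0.104 RPKM with 7aaRAE. Vehicle and 7aaRGD did not overlap, and 7aaRGD sample 2 lay among the samples with 7aaRAE. Of 12 NK markers 3 passed the filter, Gzma, Gzmb and Prf1. Gzmb and Prf1 did so through vehicle alone, where they were at 1.25 to 4.06 and 1.56 to 3.69 RPKM, so their lower levels with 7aaRGD (0.277 to 1.3 and 0.191 to 1.52 RPKM) are tied to the filter and given with no test.

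Homeostatic microglia genes were mostly lower in the mean, with wide differences between the samples of a group. With 7aaRGD 14 of 16 were lower (all genes, 50.8%), at a median of −0.177 log2 units. With 7aaRAE 16 of 16 were lower (all genes, 50.9%), at a median of −0.322. The 16 markers summed to 22458.7 to 28362.3 RPKM with vehicle and 18011.1 to 28721.3 RPKM with 7aaRGD. Their list median was 0.19, −0.70 and −0.02 log2 units from the vehicle mean in the 3 samples with 7aaRGD, and Tmem119 was at 1676.8, 652.8 and 1361.2 RPKM there against 1181.9 to 1619.4 RPKM with vehicle. The second sample alone was below the vehicle range. The monocyte and infiltrating macrophage list had medians of −0.31, 0.67 and 0.54 there, above the vehicle range in samples 2 and 3. Of the 16 markers, 1 did not overlap, near the share of all genes in the lower direction (6.4%). It was Fcrls, a microglial Fc receptor-like gene, at 386.8, 391.2 and 360.6 RPKM with vehicle and 271.5, 258.9 and 204.1 RPKM with 7aaRGD (−0.64 ± 0.212, SE). With 7aaRAE it was at 221.8, 158.9 and 305.7 RPKM, also under every vehicle sample (−0.78). Nuclear genes of oxidative phosphorylation were 24 of 24 lower in the mean (all genes, 50.8%) and 11 without overlap (all genes lower, 6.4%), at a median of −0.16 log2 units. With 7aaRAE 21 of 24 were lower in the mean, at a median of −0.093. Ndufc1, a complex I subunit outside that list, was at 8.97, 9.72 and 9.73 RPKM with vehicle and at 7.64, 6.79 and 7.6 RPKM with 7aaRGD.

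**Figure D4:**
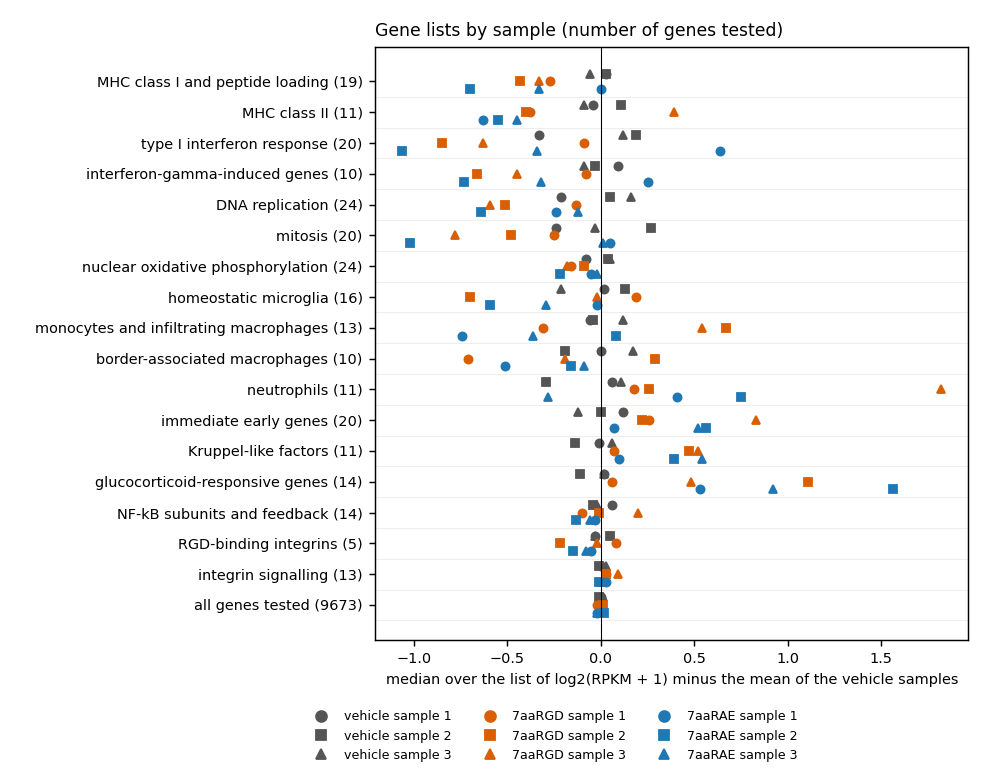
Median over the genes of a list of log2(RPKM + 1) minus the mean of the vehicle samples (x axis) for 17 lists and all genes tested (y axis, with the number of genes); each point is 1 sample, color marks the group and shape the sample number. MHC class I with 7aaRGD lies at −0.27 to −0.43, neutrophil genes of 7aaRGD sample 3 at 1.82, and samples 1 and 2 of the 7aaRGD group part at homeostatic microglia.

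By the smallest unadjusted p among genes without overlap, the 10 higher genes were Fkbp5, Jade2, Runx1, Abhd15, Mlxip, Il15ra, Ston1, Tmem104, Rnf169 and Egr2, and the lower genes included H2-DMb1, Rfc3, H2-Ob, Ccl8, Psma8, Dtd1, Cd36, Hacd4 and Ndufc1, all short of the threshold. Runx1, a transcription factor of blood cell formation and of microglial activation, was at 15.7, 13.3 and 13.9 RPKM with vehicle and at 19.5, 20.4 and 20.1 RPKM with 7aaRGD (0.46 ± 0.0845, SE; adjusted p = 0.731 by limma, unadjusted 0.000371). Its 7aaRGD samples lay within 1 RPKM of each other. Mlxip, a glucose-sensing transcription factor, went from 9.8 ± 1.38 to 16.1 ± 0.984 RPKM, and Jade2, part of a histone acetyltransferase complex, from 14.2 ± 0.414 to 23.2 ± 0.9 RPKM (SD, n = 3 each). For 9 of the 10 higher genes every sample with 7aaRAE was also above every vehicle sample, Egr2 being the exception. Both comparisons share the vehicle samples on which these genes were picked, so that count is not independent evidence about 7aaRAE. The mean with 7aaRAE exceeded that with 7aaRGD for all of the 10 but Mlxip and Egr2. Among the lower genes, Ccl8, a monocyte chemokine, was at 18.4, 11.3 and 17 RPKM with vehicle, at 4.79, 6.91 and 8.62 RPKM with 7aaRGD and at 7.59, 4.91 and 6.92 RPKM with 7aaRAE. Both peptide groups lay under vehicle and overlapped each other (7aaRGD minus vehicle −1.09 ± 0.232, SE). Cd36, a scavenger receptor for lipids, went from 2.39 ± 0.695 to 1.12 ± 0.184 RPKM (SD, n = 3 each).

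The 24 genes more than 1 log2 unit from vehicle were named after their values were seen. The 12 lower ones were H2-Ob, Ly6e, H2-DMb1, Ly6a, Gzma, Ccl5, Cxcl10, Uhrf1, Ccl8, Fblim1, Cxcl9 and H2-Q7. Of these 8 did not overlap (all genes lower, 6.4%), among them Cxcl9, which passed the filter through vehicle alone. The 12 higher ones were Ppfia4, Ngp, Fkbp5, Ddit4, Camp, H2-Ea-ps, Hopx, Lyz1, Retnlg, Jdp2, Ston1 and Il1r2, of which 5 did not overlap (all genes higher, 4.42%). All 24 were picked by size on these samples, which favors groups that do not overlap, so these counts are no separate evidence. Ppfia4, for a liprin scaffold protein best known from synapses, was the most different of all. It was at 3.44, 3.91 and 2.48 RPKM with vehicle, at 67.7, 43.3 and 12.8 RPKM with 7aaRGD and at 3.07, 3.57 and 23.6 RPKM with 7aaRAE. The 7aaRGD samples were far apart from each other, all above vehicle, and 7aaRAE sample 3 was among them (3.04 ± 0.73 log2 units, SE; adjusted p = 0.941 by limma, unadjusted 0.00239). It passed the threshold when samples 1 and 2 of each group were fitted alone (3.56, adjusted p = 0.035). In the GL261 table it was at 28.6 to 34.0 RPKM in every vehicle and 7aaRGD sample. Ly6e, an interferon-inducible surface protein, was at 182.1, 314.0 and 174.2 RPKM with vehicle and 123.7, 35.2 and 111.7 RPKM with 7aaRGD. Uhrf1, which keeps DNA methylation through replication, was at 5.72, 8.58 and 8.32 RPKM with vehicle and 5.66, 1.59 and 2.44 RPKM with 7aaRGD.

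The peptides were then compared with each other, since they were given at the same concentration for the same time. Of 9673 genes 0 passed (0%, limma), 328 had an unadjusted p under 0.05 (3.39%), the groups did not overlap at 626 genes (6.47%), and 45 genes were called higher (0.465%) and 48 lower (0.496%) in the noise comparison. Il15ra, the receptor chain that presents interleukin-15, had the smallest p. It was at 1.93, 1.63 and 1.77 RPKM with vehicle, at 2.68, 3.41 and 2.66 RPKM with 7aaRGD and at 5.5, 6.5 and 5.89 RPKM with 7aaRAE. The 3 groups formed 3 separate ranges with 7aaRGD in the middle. The difference of 7aaRGD from 7aaRAE was −0.83 ± 0.102 log2 units (SE; adjusted p = 0.166), and 7aaRAE against vehicle was the 1 call of the table (0.0103% of genes; 1.32, adjusted p = 0.00334, limma). H2-DMb1 (−0.92 ± 0.162, SE; 95% interval −1.28 to −0.55) and H2-Ob (−1.63 ± 0.376, SE; −2.48 to −0.78) were lower with 7aaRGD than with 7aaRAE in 3 of 3 samples, with limma p of 0.000295 and 0.00185 and an adjusted p of 1 for both. Class II genes went both ways between the peptides. Of the 11 tested, 8 were at an unadjusted p under 0.05 (all genes, 3.39%), of which H2-DMb1, H2-Ob and H2-DMb2 (−0.43) were lower with 7aaRGD and H2-Ab1 (0.98), H2-Aa (0.87), H2-DMa (0.82), Cd74 (0.79) and Ciita (0.49) higher, and the list median was 0.49. Without 7aaRGD sample 2, 3 genes passed, H2-Ob (−2.18), Il15ra (−0.92) and Mt2 (−1.89).

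Other genes lower with 7aaRGD than with 7aaRAE by the same rule were Notch4, Etv4 and Sema6b, each overlapping its vehicle range with 7aaRGD. Notch4 was at 1.44, 3.12 and 1.46 RPKM with 7aaRGD, at 5.53, 4.05 and 4.44 RPKM with 7aaRAE and at 1.3 to 2.11 RPKM with vehicle. The genes higher with 7aaRGD were S100a4, Slc37a2, Zfp3, Plbd1 and Fyn. S100a4, a calcium-binding protein of motile cells, was at 8.46, 6.6 and 14.3 RPKM with 7aaRGD, at 3.55, 3.94 and 3.0 RPKM with 7aaRAE and at 8.91 to 11.5 RPKM with vehicle. Here too the 7aaRGD samples were around vehicle and those with 7aaRAE were apart. Il1b was higher with 7aaRGD than with 7aaRAE in 3 of 3 samples (0.79 ± 0.252, SE; 95% interval 0.22 to 1.35). For the class I gene H2-K1 the difference between the peptides was −0.20 with a 95% interval of −0.71 to 0.31, for Mcm5 −0.07 with −1.07 to 0.92 and for Vim 0.44 with −0.01 to 0.89. These intervals cover 0 but are too wide to show that the peptides act alike.

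In the GL261 model, a mouse glioma in C57BL/6 hosts with the same peptide, dose and day, the values come from a table normalized separately and nothing was tested across the tables. H2-DMb1 averaged 277.4 RPKM with vehicle and 271.1 RPKM with 7aaRGD there, and H2-Ob 3.82 and 4.18 RPKM, so that the log2 differences were −0.03 and 0.12 against −1.39 and −1.91 in U87-MG. The GL261 list median for type I interferon response genes was 0.198 against −0.574 and for DNA replication 0.034 against −0.469. For immediate early genes it was 0.073 against 0.376. The MHC lists had the same sign in both models, at −0.083 against −0.346 for class I and −0.137 against −0.125 for class II. In GL261 18 of 19 class I and 10 of 11 class II genes were lower in the mean, against 3807 of 8983 genes used. The homeostatic microglia list was at 0.399 with 15 of 16 genes higher, against −0.177 with 2 of 16 higher. Ccl8 was lower in both without overlap. In GL261 it was at 598.2, 235.9 and 28.0 RPKM with vehicle and at 5.15, 8.08 and 15.9 RPKM with 7aaRGD, so the vehicle mean of 287.4 rested mostly on sample 1, and in U87-MG it went from 15.6 to 6.77 RPKM in the mean. Cd36 was lower in the mean in both as well (−0.57 and −0.66).

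**Figure D5:**
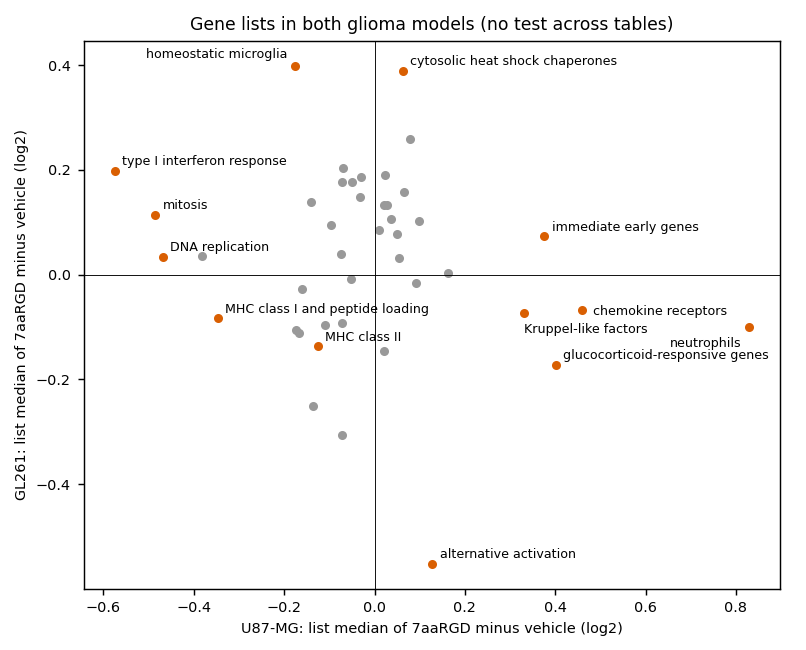
Median over each gene list of the log2 difference of 7aaRGD minus vehicle in U87-MG (x axis) and in GL261 (y axis); each point is 1 list with at least 5 genes in each table and orange marks the named ones. Type I interferon genes are at −0.574 and 0.198, glucocorticoid-responsive genes at 0.402 and −0.172, and no test joins the tables.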

How the data were processed

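RNA from CD11b+ cells of U87-MG-bearing nude mice was sequenced by the authors, with trimming in Trimmomatic, alignment to mm10 by STAR and counting by HTSeq 0.11.1 of reads above a mapping quality limit. The deposited values are RPKM plus a constant of 2 and a small further constant per gene that differs between 6 columns and the other 3. The 2 was subtracted. The column names repeat and carry no sample number. Depth was recovered from the steps between low values (87.3 to 97.5% whole within 0.1 of a read), which were not taken back to reads for a test. Of 54513 rows, 98.8% matched a gene name in GENCODE M21 or, failing that, in RefSeq. In the tables used, 6 columns of values per sample were not used.

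Protein-coding genes, with 8 polymorphic pseudogenes, whose mean reached 1 RPKM over the 9 tumor-bearing samples were fitted as log2(RPKM + 1) with limma 3.58.1 (trend) in R 4.3.3, over the vehicle, 7aaRGD and 7aaRAE groups of 3, with two-sided p-values adjusted by Benjamini-Hochberg at 0.05. The pseudocount of 1 understates the change of low genes. The noise comparison, after the study's method, calls genes whose difference exceeds that between samples of a group with a probability over 0.8. The fit was tested on simulated data. Genes were named if the study's text names them for U87-MG, if among the 10 smallest p-values without overlap in each direction (5 between the peptides), or if among the up to 4 smallest in a list; others are said to be chosen after their values were seen. A few genes that these rules name are not reported here. The members and lists were chosen with earlier results of these data known. Upstream windows come from RefSeq on GRCm38.p6. Alternatives changed the pseudocount, the filter, the scaling, the groups fitted and the samples.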

Additional observations from a re-analysis of the deposited data

Results flagged for a closer look

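The comparison of 7aaRGD with vehicle went opposite ways in the 2 tumor models for 6 named genes, with every 7aaRGD sample above every vehicle sample in one model and below every one in the other. The difference between the models was not tested, since the tables were normalized separately. Some named genes were picked because their groups did not overlap in U87-MG, and the share of all genes that went opposite ways is not given. The count of 6 is therefore no evidence that the models differ. On the log2 scale Fcrls, the microglial Fc receptor-like gene, was at −0.64 in U87-MG and at 1.19 in GL261. Bst2 was at −0.53 and 0.32, and Tpx2 at −0.64 and 0.21. Among genes higher with 7aaRGD in U87-MG, Jdp2, an AP-1 family repressor, was at 1.05 and −0.32, Klf13 at 0.87 and −0.12, and Klf10 at 0.61 and −0.14. Groups of 3 samples were not tested for single samples that stand apart.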

How the results depend on the processing

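No paired analysis was possible because the columns carry no replicate number. The columns fall into 2 sets, each with samples of all 3 groups, and whether the second set is a separate batch is not given in the sources used here. With the set as a term, chosen after seeing the data, the counts were 0 for 7aaRGD against vehicle, 0 for 7aaRGD against 7aaRAE and 1 for 7aaRAE against vehicle, as without it. In 7aaRGD against vehicle the count of 0 genes became 1 (Ppfia4) with samples 1 and 2 of each group alone, an alternative chosen after seeing the data, 0 to 2 with 1 sample left out (2 without 7aaRGD sample 2), and 206 in the noise comparison. In 7aaRGD against 7aaRAE it became 1, 0 to 3 and 93. In 7aaRAE against vehicle the count of 1 became 0 with a mean of at least 5 RPKM and with samples 1 and 2 alone, 32 with 2 groups fitted, 299 in the noise comparison and 6 at an adjusted p under 0.1. The MHC class II median of −0.125 was −0.466 with samples 1 and 2 alone and −0.423 to 0.003 with 1 sample left out, and the DNA replication median of −0.469 was −0.23 with a pseudocount of 5, which shrinks low genes by construction. With samples 1 and 2 alone the log2 difference turned to −0.01 for Fos and H2-DMa, −0.26 for H2-Aa, −0.29 for H2-Ab1, −0.05 for Il1b, −0.23 for Plbd1 and −0.03 for Tgfb1, and Klf3 and Mfge8 were at 0 with other scaling factors, Mfge8 also in the noise comparison. With 1 sample left out, differences reached or crossed 0 for Cd74 (−0.46 to 0.07), H2-Aa (−0.24 to 0.4), H2-Ab1 (−0.25 to 0.5), H2-Eb1 (−0.56 to 0.03), Il1b (−0.04 to 0.55), Itgav (−0.11 to 0), Itgb1 (−0.06 to 0.03), Itgb5 (−0.27 to 0.05), Klf12 (−0.11 to 0.14), Klf3 (−0.08 to 0.07), Klf7 (−0.01 to 0.2), Mt2 (−0.54 to 0.48), Notch4 (−0.11 to 0.27), Plbd1 (−0.21 to 0.44), S100a4 (−0.4 to 0.1), Spp1 (−0.13 to 0.26), Tmem119 (−0.56 to 0.12), Cyr61 (−0.03 to 0.35), Mfge8 (−0.09 to 0.12), Postn (0 to 0.12) and Tgfb1 (−0.02 to 0.09). For these, the cause was not tested. Genes near 1 RPKM rest on the fewest reads and are the least certain.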
